A study of Homo sapiens with 3 samples.

Results

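The genes described are EPHA6 and 59 further ligands and receptors of axon guidance, namely Eph receptors, ephrins, semaphorins, plexins, neuropilins, SLIT and ROBO proteins, netrins, DCC and UNC5 receptors. They were chosen by symbol, and 60 of the 60 symbols matched an Ensembl identifier among the 27024 genes counted. Their RNA was measured by RNA-seq in 3 libraries of 22Rv1 WT cells, numbered as replicates 1 to 3. 22Rv1 cells are an established line grown from a human prostate carcinoma, and WT cells carry the intact enhancer that the study deleted or mutated in other cells, which are not analysed here. The study's methods speak of control clones and its results of biological replicates, so the spread over the 3 libraries may be that between clones or between cultures. EPHA6 is named once in the study, among candidate genes with lower RNA after enhancer deletion and chromatin contact with the enhancer. It is not among the candidates whose decrease the study also reports from quantitative PCR. The values below describe the level of EPHA6, and that of its relatives, before any change to the enhancer. The labels name no drug treatment for these libraries.

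Guidance cues act through receptor pairs. Eph receptors are tyrosine kinases that bind ephrins on the neighbouring cell, and ephrins signal back into the cell that carries them. Ephrin-A ligands are held in the membrane by a lipid anchor and ephrin-B ligands by a transmembrane segment. Semaphorins bind plexins, and most secreted class 3 semaphorins need a neuropilin as co-receptor. SLIT proteins bind ROBO receptors, and netrins bind DCC and UNC5 receptors. All these families also act outside the nervous system, where they set cell contact, migration and vessel growth, and epithelial tumours often use them.

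The libraries held 38252744, 35675670 and 38629080 recovered reads after rows with identical reads had been merged. A level below is a normalized count from the authors' files, that is, reads over the size factor of the library. Longer transcripts give more reads, so genes are compared with each other only per kilobase (kb) of the canonical transcript in GENCODE. An order between genes holds for that length, and values with other lengths, chosen after seeing the data, are given where they differ widely. A gene is called expressed at 1 CPM (a read count scaled to the library size after edgeR's TMM scaling) or more in all 3 libraries. All 11 markers of prostate luminal epithelium were expressed, among them KRT8 at 25161 ± 789 normalized counts (SD, n = 3). The 3 basal cell markers KRT5, KRT14 and TP63 had 0 reads in each library, and 0 of the 5 endothelial markers with a row were expressed. Of the neuronal markers, 4 of 9 were expressed. These were MAP2 at 2411 ± 161, SNAP25 at 695 ± 39.9, SLC17A7 at 677 ± 67.8 and GAD1 at 83.6 ± 8.9 normalized counts (SD, n = 3). GAP43 fell below the threshold at 21.2 ± 9.66, and RBFOX3, NEFL, NEFM and STMN2 had at most 7 reads in a library. The summed level of the 9 lay between 3804 and 3982 normalized counts per library. Fibroblast and smooth muscle markers summed to between 503 and 604 normalized counts, with 3 of 8 expressed, and leukocyte markers to between 88.8 and 118, with 1 of 6 expressed. Whether any of these markers goes with a guidance gene was not tested.

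Of the 60 genes, 46 were expressed and 14 were not. The share of 76.7% stands beside 47.7% of all counted genes and 63.8% of protein-coding genes under the same rule. With 0.5 CPM instead, 51 members passed, so some of the 14, such as NRP2 and EPHB2, lay close to the threshold. Expressed members were mostly of lower abundance per kb than the median expressed gene. Their median was 133 normalized counts per kb, against 332 for all expressed protein-coding genes, and 10 of the 46 lay above the median of all expressed genes, 315. Their transcripts are long, with a median of 5.85 kb over the 60 genes against 3.44 kb for expressed protein-coding genes, so a gene of this kind passes 1 CPM at a lower level per kb. In bulk RNA a lower level in each cell cannot be told apart from fewer cells that express the gene. PLXNB2 and SEMA6A were the most abundant per kb, followed by EFNA1, EPHB4, SEMA4A, EPHA3 and SEMA3C. SLIT3 and SEMA5A had 0 reads in each library. EPHB6, SEMA3A and UNC5D had 1 read at most in a library. A count of 0 allows up to 3 reads, so expression below that was not detectable at this depth, and this covers counting error only.

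EPHA6, a receptor known mainly from brain, was expressed at a low level. It had 406, 469.7 and 438 normalized counts in replicates 1, 2 and 3, from 514, 555 and 556 reads. The mean was 438 ± 31.8 (SD, n = 3), and the highest library was 1.16 times the lowest. In GRCh37 the gene (ENSG00000080224) lies on chromosome 3 at 96533425 to 97480376 on the plus strand, a span of 947 kb. Its canonical transcript has 18 exons and 16.25 kb. Per kb the level was 26.9 ± 1.96 (SD, n = 3), and 6.93% of the expressed genes were lower. EPHA6 made up 2.22% ± 0.156 (SD, n = 3) of the summed EphA level per kb, and 5.65% of it per kb of coding length. Within its exons, 11% of the bases are shared with a lncRNA of the same strand that has no row of its own.

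The place of EPHA6 among the EphA receptors turned on the length used. It ranked 6 of 9 per kb of canonical transcript and also 6 per kb of all its exons. It ranked 5 in normalized counts with no length correction. Its coding part is 3.39 kb long, against 2.93 to 3.05 kb in the other EphA genes, so most of its canonical transcript is annotated as untranslated. Per kb of coding length, an alternative chosen after seeing the data, EPHA6 was at 129 and ranked 5, above EPHA1 at 43.2. In the plot of EphA receptors under 3 lengths, EPHA6 is thereby 1 of the receptors whose symbols lie far apart, as is EPHA7 at 31.9 per kb of all exons and 175 per kb of coding length. Which transcripts of EPHA6 the cells made cannot be read from counts per gene.

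**Figure D1:**
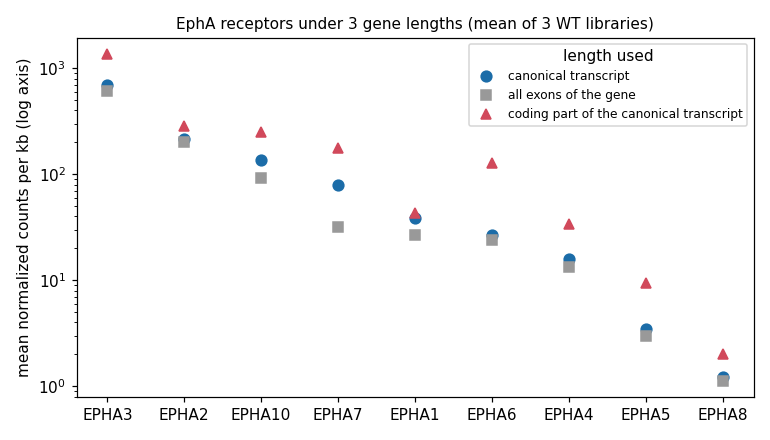
Mean normalized counts per kb (log axis) of the 9 EphA receptors over the 3 WT libraries, in order of the level per kb of canonical transcript, with circles for that length, squares for all exons of the gene and triangles for the coding part. EPHA6 moves from 26.9 per kb of canonical transcript to 129 per kb of coding length and passes EPHA1, while EPHA3 is the highest with each length.

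RefSeq lists 2 promoter windows for EPHA6, which are shown because they differ in base composition, together with those of the most and the least abundant EphA receptor. Each line gives the 250 bases before the start in GRCh38.p14, 5′ to 3′ on the plus strand, with CG dinucleotides in capitals. The coordinates are chr3:96814344-96814593 and chr3:97439357-97439606 for EPHA6, chr3:89107371-89107620 for EPHA3 and chr1:22563239-22563488 for EPHA8.
EPHA6 upstream start: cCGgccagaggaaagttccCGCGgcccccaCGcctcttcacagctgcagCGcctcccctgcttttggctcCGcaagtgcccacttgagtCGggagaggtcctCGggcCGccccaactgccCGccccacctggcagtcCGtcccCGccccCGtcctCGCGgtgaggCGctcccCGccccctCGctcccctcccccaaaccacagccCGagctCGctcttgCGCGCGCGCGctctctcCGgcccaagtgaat
EPHA6 downstream start: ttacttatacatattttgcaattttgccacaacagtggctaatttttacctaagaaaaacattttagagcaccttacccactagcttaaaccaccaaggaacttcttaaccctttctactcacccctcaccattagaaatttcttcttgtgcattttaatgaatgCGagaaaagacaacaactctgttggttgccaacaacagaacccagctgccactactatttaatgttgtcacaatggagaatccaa
EPHA3: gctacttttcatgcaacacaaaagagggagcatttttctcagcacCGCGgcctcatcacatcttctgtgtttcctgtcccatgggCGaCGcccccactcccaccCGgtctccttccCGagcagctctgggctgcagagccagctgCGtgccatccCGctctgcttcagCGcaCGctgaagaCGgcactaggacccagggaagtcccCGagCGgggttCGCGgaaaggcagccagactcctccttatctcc
EPHA8: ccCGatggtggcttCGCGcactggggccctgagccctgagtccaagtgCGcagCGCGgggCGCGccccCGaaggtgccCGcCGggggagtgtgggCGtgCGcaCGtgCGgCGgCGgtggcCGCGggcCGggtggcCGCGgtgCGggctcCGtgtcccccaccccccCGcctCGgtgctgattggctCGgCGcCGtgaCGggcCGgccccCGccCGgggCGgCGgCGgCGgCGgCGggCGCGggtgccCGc

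CG dinucleotides, the sites of DNA methylation, were about as many in the promoters of expressed members as in those of the others. In the whole window of 300 bases, which adds the 50 bases after the start, the EPHA6 windows hold 30 and 1 CG. EPHA3 holds 17 and EPHA8 holds 51, although EPHA3 was the most abundant EphA receptor and EPHA8 the least. For the 52 members with a window, the window with the most CG was taken for each gene. The median was 28 CG over the 40 expressed members and 30 over the 12 that were not expressed. Among the members with a window, 46.2% held 30 CG or more, against 25.5% of the 27305 genes with a window. That set is larger than the 19140 protein-coding genes counted here, so it is not made up of like genes. The share among protein-coding genes alone was not computed. This is a description of sequence, and no methylation was measured.

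Of the other EphA receptors, EPHA3 stood out. It had 4001, 4179 and 3841 normalized counts in replicates 1, 2 and 3 and took 57.7% ± 0.916 (SD, n = 3) of the summed EphA level per kb. Per kb it was 26.1 ± 1.68 times (SD, n = 3) as high as EPHA6, and 10.5 times per kb of coding length. EPHA2, a receptor that can also signal without ligand in epithelial tumours, had 926, 815 and 779 normalized counts. EPHA10, a member that lacks kinase activity, had 752, 757 and 737. The ranges of these 3 genes per kb did not overlap with each other. EPHA7 was at 525 ± 13.9, EPHA1 at 127 ± 15.2 and EPHA4 at 101 ± 18.4 normalized counts (SD, n = 3). Each of them lay apart from its neighbour in the order, so the ranges descended without overlap from EPHA3 to EPHA4. EPHA5 at 29.0 ± 12.1 and EPHA8 at 6.07 ± 5.19 normalized counts were not expressed, and their ranges per kb overlapped. The EPHA1 reads appear a second time under a neighbouring identifier without a symbol and were counted once.

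Of the 5 EphB receptors, 2 were expressed. EPHB4, the receptor of ephrin-B2 in vessel formation, had 4491, 4192 and 4616 normalized counts in replicates 1, 2 and 3. EPHB3 had 1288, 1271 and 1265. Both were expressed in each library, and EPHB4 made up 76.9% ± 0.816 (SD, n = 3) of the summed EphB level per kb. EPHB2 followed at 36.4 ± 9.35 normalized counts and EPHB1 at 8.77 ± 4.66 (SD, n = 3), with overlapping ranges per kb. EPHB6, which like EPHA10 lacks kinase activity, had 0, 0 and 1 reads, so the kinase-dead receptors of the A and B classes differed in whether they were expressed. The summed level per kb was 1216 ± 36.4 for EphA and 1325 ± 51.8 for EphB receptors (SD, n = 3). Their ratio, EphB over EphA, was 1.09 ± 0.0725 and fell to between 0.845 and 0.972 with other lengths, so no order of the classes can be given.

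All 8 ephrins were expressed. EFNA1, the first ephrin to be described, had 1532, 1586 and 1711 normalized counts in replicates 1, 2 and 3. EFNA3 had 717, 708 and 738, and EFNA4 had 529, 496 and 509. Per kb EFNA1 was the highest of the ephrins at 1037 ± 59.1 (SD, n = 3), while EFNA4 at 408 and EFNA3 at 397 had overlapping ranges. These 3 genes lie side by side on chromosome 1, with 9.28 kb between EFNA4 and EFNA3 and 40.3 kb between EFNA3 and EFNA1. A read-through gene without a row of its own covers 43.9% of the exon bases of EFNA3 and 15.0% of those of EFNA4, so the division of reads between them is uncertain. EFNA2 at 159 ± 10.3 and EFNA5 at 189.9 ± 29.6 normalized counts (SD, n = 3) were lower per kb than these.

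Ephrin-B ligands were less abundant. EFNB1 had 526, 483 and 514 normalized counts in replicates 1, 2 and 3, EFNB3 had 235, 280.1 and 261, and EFNB2 had 257, 309 and 229.9. Per kb they stood at 154, 80.4 and 53.1 with no overlap between neighbours. Per kb of coding length EFNB2 at 265 lay above EFNB3 at 253, so the order of these 2 depends on the length. An antisense lncRNA covers 36.4% of the exon bases of EFNB2, and the strand used in counting is not given in the sources used here. The summed level per kb of ephrin-A was 6.77 ± 0.359 times that of ephrin-B ligands (SD, n = 3), and above 3 times with every length used. EPHB4 was 19.6 ± 3.76 times (SD, n = 3) as high per kb as EFNB2, but 13.3 times with all exons and 5.75 times with coding length. Eph receptors together were 1.14 ± 0.0388 times the ephrins per kb, but 0.704 times per kb of coding length, so the side that is higher depends on the length.

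**Figure D2:**
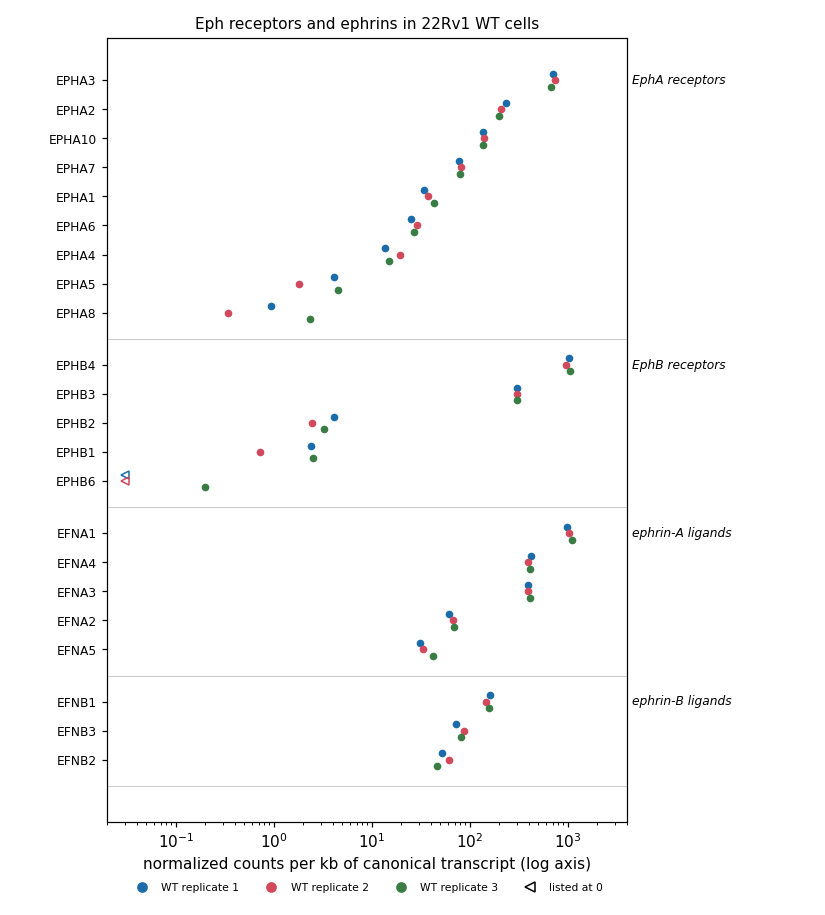
Normalized counts per kb of canonical transcript (log axis) of 14 Eph receptors and 8 ephrins, with 1 point for each WT library and open triangles at the left for a value listed at 0. EPHA3, EPHB4 and EFNA1 lead their classes, EPHA6 lies near 26.9, and EPHB6 is at or near 0.

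The semaphorins were led by 3 genes of different classes. SEMA6A, a transmembrane semaphorin that binds class A plexins, had 10434, 11160 and 10446 normalized counts in replicates 1, 2 and 3. SEMA4A had 2515, 2481 and 2713, and the secreted SEMA3C had 3114, 3644 and 3349. SEMA6A was at 1564 ± 60.9 per kb (SD, n = 3), above 87.8% of the expressed genes, and made up 37.8% ± 0.793 of the summed level of the 16 semaphorins. It was 2.27 ± 0.109 times (SD, n = 3) as high per kb as SEMA3C.

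Among class 3 semaphorins, 4 of 6 were expressed. SEMA3C took 74.0% ± 2.70 (SD, n = 3) of their summed level per kb. SEMA3B, often described as a tumour suppressor, had 431, 387 and 414 normalized counts, and SEMA3F, its neighbour on chromosome 3, had 361, 311 and 347. These 2 genes lie 78.5 kb apart and were at 129 ± 6.97 and 94.2 ± 7.11 per kb. SEMA3E, which binds PLXND1 without a neuropilin, was at 96.8 ± 15.2 normalized counts. SEMA3D had 24, 41 and 59 reads and SEMA3A, the classical repellent of axons, had 1, 0 and 0. Within the 60 genes, SEMA3C, SEMA3E, SEMA3A and SEMA3D follow each other on chromosome 7 between 80371854 and 84816372. The distances between them, in this order, are 2441, 307 and 503 kb. They stood at 691, 13.3, 0.0329 and 4.93 per kb, and thus ran from among the highest of the 60 genes to near 0.

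Class 4 semaphorins, which are membrane-bound and act mainly on class B plexins, were expressed in full. Their levels per kb ran from 38.8 for SEMA4F to 793 for SEMA4A, and each lay apart from its neighbour. SEMA4C had 1014, 1016 and 919.5 normalized counts, SEMA4G had 829.6, 926 and 849.5, SEMA4B was at 609 ± 4.97 and SEMA4D at 632 ± 24.9. MRPL43, a gene of the opposite strand with a row of its own, and a lncRNA cover 28.0% of the exon bases of SEMA4G, so its level is uncertain. Of the remaining classes, SEMA6C had 203, 144 and 141 normalized counts, SEMA7A 26.1, 11.8 and 20.5, and SEMA5A was listed at 0.

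All 8 plexins were expressed. PLXNB2, a receptor for class 4 semaphorins, had 10903, 10314 and 10278 normalized counts in replicates 1, 2 and 3. It made up 59.1% ± 0.994 (SD, n = 3) of the summed plexin level per kb. At 1638 ± 54.7 per kb (SD, n = 3) it had the highest mean of the 60 genes, and its range overlapped with that of SEMA6A. Per kb of coding length PLXNB2 at 1904 lay below SEMA6A at 3456 and EFNA1 at 2617. PLXNA1 had 2554, 2564 and 2592 normalized counts, and PLXNB1, the receptor of SEMA4D, had 2039, 1963 and 1912. Both were at a like level per kb, 276 ± 2.08 and 275 ± 8.90 (SD, n = 3), with overlapping ranges. SEMA4D was 0.505 ± 0.0352 times (SD, n = 3) as high per kb as PLXNB1, a ratio that was 0.221 with all exons and 0.795 with coding length. PLXND1 was at 1378 ± 31.8, PLXNA2 at 1834 ± 127, PLXNA3 at 1314 ± 62.4 and PLXNB3 at 555 ± 61.9 normalized counts (SD, n = 3). SRPK3, a neighbouring gene, covers 20.4% of the exon bases of PLXNB3. PLXNC1, the receptor of SEMA7A, was the lowest at 103 ± 13.6.

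Of the neuropilins, NRP1 passed the threshold for expression, while NRP2 fell short of it with 42, 33 and 28 reads. NRP1 had 2039, 2013 and 1975 normalized counts in replicates 1, 2 and 3, and NRP2 had 33.2, 27.9 and 22.0. Per kb NRP1 was 87.7 ± 16.9 times as high (SD, n = 3), with 72.4 times in the lowest library. SEMA3F, for which NRP2 is the preferred co-receptor, was expressed beside it at 339.9 ± 25.6 normalized counts. SEMA3C, which can use either neuropilin, was 1.94 ± 0.165 times (SD, n = 3) as high per kb as NRP1, and 3.17 times with all exons.

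SLIT and ROBO genes each had 1 leading member. SLIT1 had 704, 646 and 694 normalized counts in replicates 1, 2 and 3, SLIT2 had 216, 221 and 183, and SLIT3 was listed at 0. ROBO1 had 1413, 1443 and 1311, and ROBO2 had 30.8, 33.0 and 48.0. Ligand and receptor were thus both expressed, with ROBO1 at 2.35 ± 0.201 times the level of SLIT1 per kb (SD, n = 3). ROBO1 and ROBO2 lie 947 kb apart on chromosome 3, and ROBO1 was 50.7 ± 13.2 times as high per kb (SD, n = 3). The ratio was 35.6 in the lowest library, replicate 3. Its mean was 58.7 with all exons and 34.8 with coding length. ROBO2 passed the threshold of 1 CPM only narrowly, with 39, 39 and 61 reads.

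The netrins NTN1 and NTN4 had a summed level of 11.9 ± 0.657 per kb, and DCC and the UNC5 receptors one of 76.3 ± 7.24 (SD, n = 3). NTN1, the founding netrin of vertebrates, had 45.0, 49.9 and 34.6 normalized counts in replicates 1, 2 and 3, and NTN4 had 15.8, 15.2 and 19.7. DCC, the attractive netrin receptor, had 8, 3 and 6 reads and was not expressed. The repulsive receptors were present, with UNC5C at 347, 395 and 332 normalized counts, UNC5B at 145, 144 and 144, and UNC5A at 67.2, 80.4 and 49.6. UNC5C was the highest of them at 37.1 ± 3.42 per kb (SD, n = 3), while the ranges of UNC5B and UNC5A overlapped. UNC5D had 1, 0 and 1 reads. NEO1, a DCC relative that also binds netrins, was at 1524 ± 122 normalized counts.

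**Figure D3:**
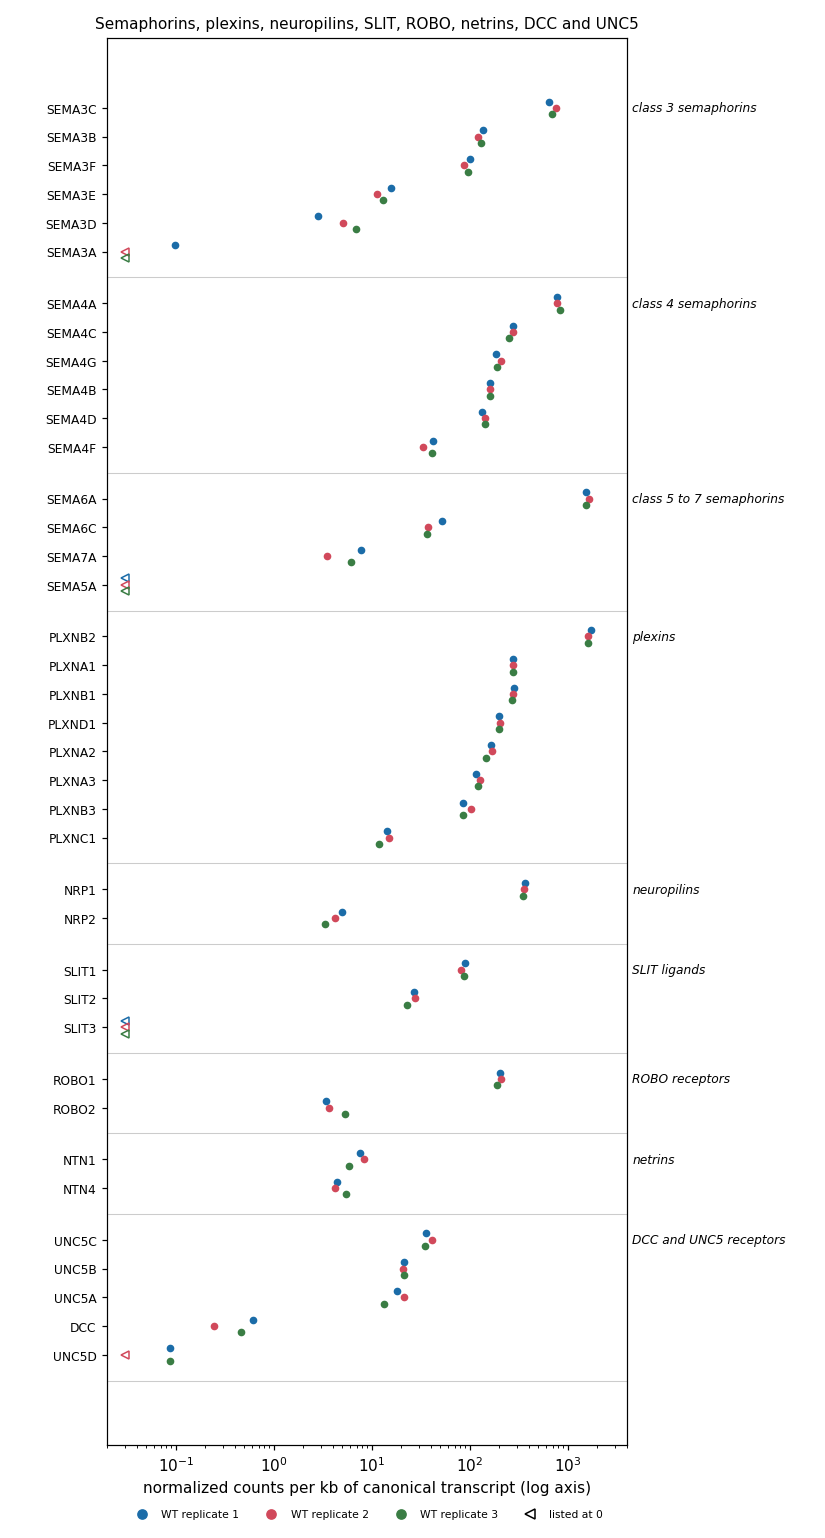
Normalized counts per kb of canonical transcript (log axis) of the 38 semaphorins, plexins, neuropilins, SLIT, ROBO, netrin, DCC and UNC5 genes, with 1 point for each WT library and open triangles at the left for a value listed at 0. PLXNB2 at 1638 and SEMA6A at 1564 are the highest, while SEMA5A and SLIT3 are at 0 in each library.

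The spread between the WT libraries was then set against that of all genes. A chi-square test of homogeneity, with Benjamini-Hochberg adjustment over the 14646 genes that averaged 10 reads or more, called 20 of the 53 members that reached this mean. This is 37.7%, beside 41.9% of all genes tested, so the members called are near the background. The test takes reads as independent, and its p-values speak only of the spread between these samples, which may be technical. With edgeR's trended dispersion added to the variance, 0 of the 53 passed, 1 had an unadjusted p under 0.05, and 0.416% of all genes passed. That dispersion was estimated from the same 3 libraries, so the fit itself makes calls rare. Their absence does not show that the libraries are alike. In a scaled test, in which each chi-square was divided by 3.49 (the value per degree of freedom in genes of 10 to 50 reads), 1 member passed beside 3.47% of all genes. That member was SEMA3C, which was lowest in replicate 1 and highest in replicate 2, at 1.17 times the level. Its adjusted p was 2.2e-10 in the plain chi-square test, 0.0229 in the scaled test and 0.763 with the trended dispersion. EPHA6 was not called, with an adjusted p of 0.112 in the plain chi-square test and 1 with the dispersion.

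Among the 20 called members were PLXNB2, SEMA6A, EFNA1, EPHB4, SEMA4A, EPHA3 and SEMA3C, which had the highest levels per kb and whose libraries differed by at most 1.17 times. The widest differences among the 20 were those of genes with few reads, namely EPHA5 with 43, 18 and 48 reads and SEMA3D with 24, 41 and 59. The SD as a share of the mean had a median of 6.91% over the 53 members and 5.56% over all genes tested. Of the 55 members with a mean of at least 1 read, 35 lay above the median of genes of like depth. SEMA3C at 7.89% and EFNB2 at 15.1% lay above the 95th percentile, 2 of 55, no larger a share than among all genes. EFNB2 did so narrowly, against 14.9% for genes of 316 to 1000 reads, and the percentile of the next lower bin, 25.8%, lies above it. It was highest in replicate 2 and lowest in replicate 3. UNC5B was the steadiest, at 0.25%. EPHB3 at 0.923%, SEMA4B at 0.815%, EPHA10 at 1.42% and PLXNA1 at 0.755% also lay under the 5th percentile of genes of like depth.

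**Figure D4:**
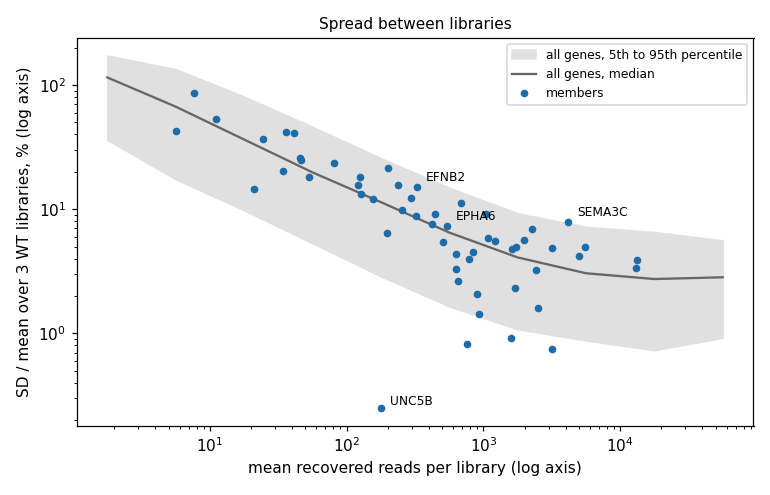
SD as a percentage of the mean over the 3 WT libraries against the mean recovered reads per library (both log axes), with points for the 55 members with a mean of at least 1 read, and a line and band for the median and the 5th to 95th percentiles of all genes in bins of like depth. SEMA3C at 7.89% and EFNB2 at 15.1% exceed the 95th percentile of their own bins, a share of the 55 no larger than among all genes. UNC5B at 0.25% is the steadiest of the members under the 5th percentile of their own bins.

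Genes listed as effectors of these signals were mostly expressed as RNA, beside 63.8% of protein-coding genes under the same rule. The lists also hold receptors such as DSCAM, and no protein was measured. Of 16 effectors of Eph receptors and ephrins, 14 were expressed, and 5 of the 14 tested were called by the chi-square test, beside 41.9% of all genes. The highest per kb were PTPN11, a phosphatase, at 1950 ± 50.5, INPPL1, a lipid phosphatase, at 1143 ± 20.4 and VAV2, an exchange factor for small GTPases, at 468 ± 11.7 (SD, n = 3). ARHGEF15 had 0 reads in each library, and TIAM1 had 4, 6 and 8. Of 23 effectors of semaphorins and plexins, 22 were expressed and 11 of 23 were called. RHOA and RAC1, GTPases of the cytoskeleton, led at 8683 ± 280.0 and 4562 ± 98.1 per kb (SD, n = 3), followed by DPYSL3, a collapsin response mediator, at 947 ± 16.5. FES was not expressed, at 22.4 ± 2.95 normalized counts. Of 17 effectors of SLIT, ROBO and netrins with a row, 16 were expressed and 7 of 17 were called. PITPNA, a phosphatidylinositol transfer protein, was at 1064 ± 18.0 per kb, CDC42, a GTPase, at 734 ± 17.1 and VASP, an actin regulator, at 730.3 ± 5.75 (SD, n = 3). DSCAM, a further netrin receptor, was not expressed, at 25.5 ± 2.46 normalized counts. With the trended dispersion from edgeR, 0 genes of the 3 lists were called, while 1, 2 and 2 of them had an unadjusted p under 0.05.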

How the data were processed

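RNA of WT 22Rv1 cells was sequenced by the authors in 3 libraries. They aligned the read pairs by HISAT2 (GRCh37, GENCODE genes), obtained gene counts from HTSeq and scaled these in DESeq2 (the GENCODE release and the strandedness are not given in the sources used here). The signal deposited by the authors is the read count over the library's size factor, rounded to 1 decimal.

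Whole reads were recovered from the step between the values, and within rounding 100% of those above 0 were whole. This gave size factors of 1.2657, 1.1817 and 1.2702. Adjacent rows with the same reads in all 3 libraries, above 0 in at least 1, were counted once, which left 27024 of 29000 rows. Symbols, positions and lengths came from GENCODE 44 lifted to GRCh37, with 1 canonical transcript per gene. Promoter windows came from RefSeq (GRCh38.p14), and no coordinates were converted between builds. Near-identical copies (98% identity over 50% of the transcript, minimap2 2.31) were found for 0 of the 60 members.

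TMM scaling used edgeR 4.0.16 (R 4.3.3), and DESeq2 1.42.0 gave an alternative. Reads were compared between libraries by a chi-square test of homogeneity over genes averaging 10 reads or more (scipy 1.17.1), adjusted by Benjamini-Hochberg and called at 0.05, after checks on simulated data. Neighbours in the order of levels were called apart where the ranges of their 3 values did not overlap, with no test. With 1 group, no comparison between conditions was made. The members and gene lists were chosen with earlier results of these data known. Values in each library are given for EPHA6, up to 3 members of each role group with the highest level per kb, and members called with the trended dispersion. Members at or under 3 reads in every library are named with their reads, and the remaining values in each library were chosen after they were seen.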

Additional observations from a re-analysis of the deposited data

How the results depend on the processing

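The number of expressed members, 46, lay between 45 and 53 under other thresholds, scalings and row handling, and between 46 and 48 without 1 replicate. The number of members called different between libraries, 20, became 0 with edgeR's trended dispersion and 1 with the scaled chi-square, both of which allow for more spread. It was 19 to 23 under other scalings and minimum counts, beside 39.1% to 43.6% of all genes, and 9 to 14 with 1 replicate left out, beside 22.8% to 27% of all genes, which compares fewer libraries (9 without replicate 2, 13 without replicate 3). Gene length moved every ratio of summed levels. EphB over EphA was 0.972 with all exons, 0.845 with no length correction and 0.849 with coding length, ephrin-A over ephrin-B was 5.65, 3.10 and 4.97, and Eph receptors over ephrins was 1.04, 2.98 and 0.704. Without 1 replicate they lay at 1.06 to 1.13, 6.57 to 6.92 and 1.12 to 1.16. EPHA6 ranked 5 rather than 6 with no length correction or coding length, and 6 whichever replicate was left out. All 360 alternative values of members' levels moved by less than 1 SD, which follows from having 3 libraries and from setting scalings to the same overall level. Of 91 alternative group sums, 37 moved, all with another length. Coding length and the ranks were chosen after seeing the data. No paired analysis was possible because only 1 group was analysed. Depth limits the genes with few reads, and the 7 members with a mean under 10 reads were not tested.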

Other observations

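A further 14 genes, relatives of the 60 or other guidance cues such as RGMA, RGMB and DRAXIN, which are not among them and were picked with their values in view, were mostly below the threshold for expression. Under the rule of 1 CPM in all 3 libraries, 2 of the 14 were expressed. RGMB, a ligand of neogenin, was at 1134 ± 38 normalized counts (SD, n = 3), from 1487, 1332 and 1397 reads, while its relative RGMA had 5, 14 and 1 reads. SEMA3G, a secreted semaphorin known from endothelium, was at 180.5 ± 6.02. The netrins NTN3 at 36.6 ± 6.42 and NTN5 at 22.9 ± 8.67 normalized counts and the netrin-G genes NTNG1 at 31.3 ± 3.50 and NTNG2 at 13.6 ± 6.50 fell below the threshold. PLXNA4, a receptor of SEMA6A, had 6, 11 and 10 reads. ROBO4, a receptor of endothelial cells, had 0 reads in each library.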
